A study of Mus musculus with 3 samples.

Results

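The genes described here encode the proton pump of endosomes and lysosomes, the Lamp membrane glycoproteins and the cathepsins, as measured in mouse plasmacytoid dendritic cells. They were chosen by name, as every gene symbol of the array that starts with Atp6v or with Lamp and a digit, or that is Cts and exactly 1 letter. This gave 43 of 19505 named genes, of which 22 were Atp6v genes, 4 Lamp genes and 17 cathepsin genes, each with 1 probe set. RNA came from 3 samples with 1 array each, and there were no replicates, so each value stands for 1 hybridisation and no difference has a replicate error or a test. All cells were wild-type and came from marrow of BALB/c males at 4 to 5 weeks of age, grown for 6 to 9 days in Flt3 ligand at 100 ng/mL, matured with CpG oligodeoxynucleotides and sorted. The treated samples received astragaloside IV, a saponin, or oxymatrine, an alkaloid, for 12 h, and then the chemokine CCL21 for 1 h, in a study of plasmacytoid dendritic cell migration and compounds from natural medicines. The doses are not given, nor whether the control sample received CCL21 or a vehicle, nor how many mice each sample came from.

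The vacuolar ATPase moves protons into endosomes and lysosomes. Its cytosolic V1 sector splits ATP, and its membrane V0 sector carries the protons. The acid lumen activates cathepsins, proteases that degrade proteins, trim the invariant chain of MHC class II and cleave endosomal Toll-like receptors such as TLR9, the receptor for CpG in these cells. Lamp proteins line the lysosomal membrane. Many genes of this system carry CLEAR elements in their promoters, variants of the sequence CACGTG that are bound by TFEB and its relatives.

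The promoters of 4 genes with this sequence are shown because it is the core of the CLEAR element. RefSeq promoter windows of 300 bases (build GRCm38.p6), from 250 bases before to 50 after the transcription start, were listed for 33 of the 43 genes. Each line below gives bases ahead of the start only, 5′ to 3′ on the gene's strand, with CACGTG in capitals, so the second copy of Ctsa, past the start, is not shown. The stretches lie at chr8:13159080-13159160 (plus strand) for Lamp1, chr4:117887330-117887385 (minus) for Atp6v0b, chr16:44139365-44139410 (minus) for Atp6v1a and chr2:164833741-164833772 (plus) for Ctsa.
Lamp1: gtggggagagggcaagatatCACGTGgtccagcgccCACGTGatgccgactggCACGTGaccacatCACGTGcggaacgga
Atp6v0b: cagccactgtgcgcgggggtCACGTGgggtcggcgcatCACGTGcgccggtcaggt
Atp6v1a: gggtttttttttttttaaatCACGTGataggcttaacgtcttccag
Ctsa: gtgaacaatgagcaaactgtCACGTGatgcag

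Lamp1 had 4 copies of CACGTG in its window, with first bases at -61, -45, -28 and -15 from the start, and Atp6v0b and Ctsa had 2 each. Single copies stood in Atp6v0d1, Atp6v0e, Atp6v1a, Ctsf and Ctsl. In all, 8 of the 33 genes had at least 1 copy, or 24.2%, beside 9.26% of 15691 named genes with a window. CACGTG reads the same on both strands. Of the 22 genes that were also above background on the array, 7 had it, or 31.8%, beside 11.7% of 8725 such genes. The 8-base palindrome TCACGTGA, which contains CACGTG, was found in Atp6v0d1, Atp6v0e, Atp6v1a and Ctsa, 4 of 33 genes or 12.1%, beside 1.45% of all. The form GTCACGTG, searched on both strands and also containing CACGTG, was found in 4 of 33, beside 3.35% of all. These are matches of letters, with no test of the shares, and not binding sites.

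**Figure D1:**
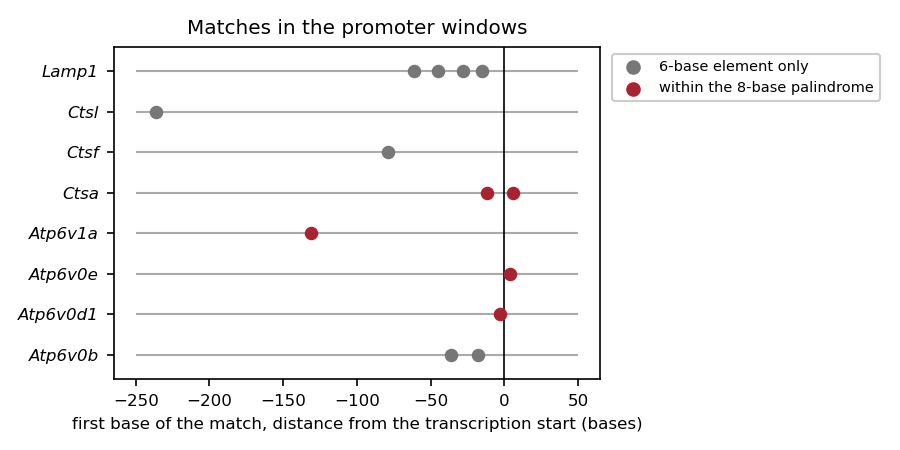
First base of each CACGTG match in the promoter windows of the 8 genes that hold one, as distance from the transcription start in bases (grey lines span the window, the vertical line is the start, red marks matches within TCACGTGA). The 4 matches of Lamp1 lie between -61 and -15, while that of Ctsl lies at -236.

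A gene counted as above background from a mean log2 level of 5.28, below which 95% of 1412 receptor genes of smell and pheromone sensing lay. By this measure 31 of the 43 genes, or 72.1%, were above background, beside 54.7% of all named genes. The deposited values are log2 levels made with RMA, and the medians over all probe sets were 5.68, 5.74 and 5.75 in control, astragaloside IV and oxymatrine. For 16 of these 31 genes at least 2 arrays held exactly the same value, or 51.6%, as for 51.6% of all genes above background. Differences under 0.005 are called equal here. Levels were compared between arrays for the same gene and not between genes. Of the plasmacytoid markers 13 of 14 were above background, among them the lineage factor gene Tcf4 at 14.37 in each array and the receptor gene Siglech at 8.99, 8.99 and 9.02 in control, astragaloside IV and oxymatrine. Also among them were Spib at 8.03, 8.03 and 7.55 and Ly6d at 6.89, 6.59 and 6.59. Pacsin1 was below background in each array. Summed log2 levels of all 14, Pacsin1 included, were 136.0, 135.0 and 134.8. After astragaloside IV 7 of the 13 were lower than control and 1 higher, beside 39.9% and 30.6% of all genes above background. After oxymatrine 7 were lower and 2 higher, beside 45.2% and 28.9%. Of 11 monocyte and macrophage markers 10 were above background. Summed log2 levels of all 11 were 122.6, 122.2 and 122.1, with C5ar1, not above background by its mean, at 4.85, 4.85 and 5.33. Of the 10, 4 were lower and 3 higher after astragaloside IV, and 5 and 1 after oxymatrine. Among the 10, Ms4a7 was at 15.73, 15.62 and 15.59, Adgre1 at 14.12, 13.98 and 14.12 and Lyz2 at 13.88 in each array. Mertk differed most from control, by -0.27 and -0.45. For each type of conventional dendritic cell 6 of 8 markers were above background, among them Sirpa of the type 2 cells at 14.90 in each array. Markers of the type 1 cells summed to 54.8, 53.1 and 52.8 and those of the type 2 cells to 66.6, 67.3 and 66.8. These sums include Xcr1 and Clec9a of type 1 and Cd209a and Mgl2 of type 2, all below background in each array. Differences from control after astragaloside IV and oxymatrine were -0.73 and -0.49 for Itgae, -0.61 and -0.45 for Gcsam and -0.26 and -0.38 for Naaa of type 1. They were -0.03 and -0.24 for Cadm1, 0 and -0.20 for Batf3 and 0.07 and 0 for Wdfy4. Macrophages and conventional dendritic cells also express lysosomal genes, and in RNA of mixed cells fewer cells of a type and less RNA per cell cannot be told apart. Their part in the results was not tested.

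**Figure D2:**
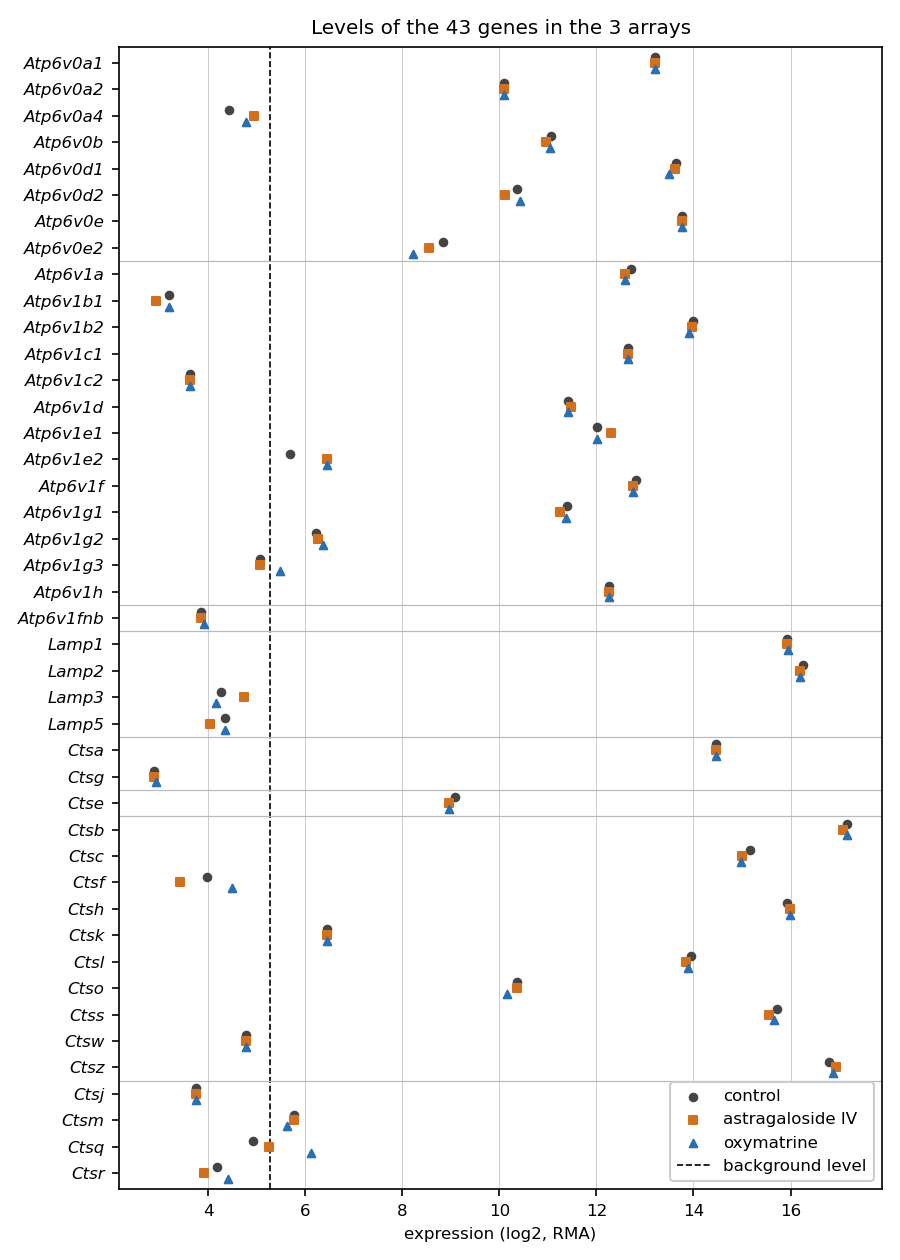
Log2 expression level of the 43 genes in the control (circles), astragaloside IV (squares) and oxymatrine (triangles) arrays, grouped by role from the V0 and V1 sectors of the pump to the Lamp genes and cathepsins. The dashed line is the background level of 5.28, and for most genes to the right of it the 3 symbols nearly coincide.

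Most of these genes had nearly the same level in all 3 arrays. Between the highest and the lowest array the difference was under 0.2 on the log2 scale for 26 of the 31 genes above background, or 83.9%, beside 62.2% of 10671 genes above background. The median of that range was 0.10, beside 0.14 for all. These shares are not matched for level, and differences were smaller among bright genes: the SD over genes of similar level, for astragaloside IV against control, was 0.29 near Ctsq and 0.08 near Lamp1. Ctsq was above background in the oxymatrine array only, so its place among the 31 rests on the array where it was high.

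In the V0 sector, which spans the membrane, 7 of 8 genes were above background. Atp6v0c, a further V0 gene, was not among the named genes and is not covered. Atp6v0a1, which encodes the proton-conducting subunit a, was at 13.20 in each array, and its isoform gene Atp6v0a2 at 10.10 in each. Atp6v0e, for the small subunit e, was at 13.77 in control and at 13.76 in both treated arrays. The level of Atp6v0b, part of the rotating ring, was 11.06 in control, 10.97 after astragaloside IV and 11.05 after oxymatrine. All 4 genes therefore lay within 0.10 of control in both treated arrays.

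Atp6v0d1, which encodes the ubiquitous form of the stalk subunit d, was at 13.63, 13.61 and 13.49 in control, astragaloside IV and oxymatrine. Its difference from control was -0.02 after astragaloside IV and -0.14 after oxymatrine. Atp6v0d2, the isoform known from osteoclasts and some macrophages and dendritic cells, was at 10.36, 10.12 and 10.43. It was lower than control by a difference of -0.23 after astragaloside IV and higher by 0.08 after oxymatrine. Of 10 osteoclast markers, 7 were above background, with summed levels of 80.2, 79.4 and 80.3 in the same order. Acp5 was at 16.47, 16.37 and 16.40, and Oscar, Calcr and Mmp9 were below background in each array. The sum and Atp6v0d2 were both lowest in the astragaloside IV array. Of the markers, Car2 differed most from control there, by -0.42, while Dcstamp, Tnfrsf11a and Itgb3 were equal to control. The part of such cells in the result was not tested.

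Atp6v0e2, a second gene for subunit e, had the lowest differences from control of all 31 genes. It was at 8.84 in control, 8.54 after astragaloside IV and 8.23 after oxymatrine. The control array was the highest and the oxymatrine array the lowest. Its differences from control were -0.30 and -0.61, the latter a 1.53-fold lower level. Genes of similar level had an SD of 0.23 for the oxymatrine difference, so Atp6v0e2 lay at -2.66 times that SD. This SD is taken over genes, in 1 of 20 bins of equal size by level, and is not a replicate error. Atp6v0e, its widely expressed counterpart, differed from control by -0.01 in both treated arrays.

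In the V1 sector 10 of 13 genes were above background. Atp6v1a, for the catalytic subunit A, was at 12.70 in control and 12.59 in both treated arrays, a difference of -0.12 in each. Atp6v1b2, for the ubiquitous subunit B, was at 13.98, 13.97 and 13.90 in control, astragaloside IV and oxymatrine. Atp6v1c1, for subunit C, was at 12.65 in control and 12.64 in both treated arrays, and Atp6v1h, for subunit H, at 12.26 in each. The rotor genes Atp6v1d and Atp6v1f lay at 11.41, 11.47 and 11.41 and at 12.81, 12.76 and 12.76. Atp6v1g1, for subunit G of the outer stalk, was at 11.40, 11.25 and 11.37, lowest after astragaloside IV. The isoform gene Atp6v1g2, known from brain, was at 6.21, 6.27 and 6.37. None of these 8 genes differed from control by more than 0.16 in either treated array.

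Both genes of subunit E, a part of the outer stalk, stood apart from the other V1 genes. Atp6v1e1, the ubiquitous isoform, was at 12.00 in control, 12.29 after astragaloside IV and 12.00 after oxymatrine, so only the astragaloside IV array was high. That difference of 0.29 was 2.20 times the SD of genes of similar level. Atp6v1e2, the isoform known from testis, was at 5.68 in control and 6.44 in both treated arrays. The difference of 0.76 in each comparison is a 1.69-fold higher level, at 3.01 times the SD of genes of similar level after astragaloside IV and 2.48 times after oxymatrine. Both treated values were exactly the one that Ctsk had in all 3 arrays. In the control array 2 probe sets carried this value, beside 5 and 4 in the treated arrays. Both differences share the control array, whose level of 5.68 was near background.

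Of the Lamp genes, Lamp1 was at 15.93 in control and after astragaloside IV and at 15.94 after oxymatrine. Lamp2, which also serves chaperone-mediated autophagy, was at 16.27 in control and 16.20 in both treated arrays. Both main lysosomal glycoprotein genes thus lay within 0.07 of control. Lamp3, or DC-LAMP, known from mature conventional dendritic cells, was below background in each array at 4.27, 4.73 and 4.15. Lamp5, or BAD-LAMP, a marker of human plasmacytoid dendritic cells, was below background as well at 4.34, 4.03 and 4.34.

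Among the cathepsins of the endolysosome, 8 of 10 cysteine proteases were above background outside the placental cluster. Ctsb, an endopeptidase and carboxypeptidase, was at 17.17 in control, 17.08 after astragaloside IV and 17.17 after oxymatrine. Ctss, which trims the invariant chain in antigen-presenting cells, was at 15.72, 15.56 and 15.66, and Ctsl, a related endopeptidase, at 13.94, 13.84 and 13.88. All 3 genes were lowest in the astragaloside IV array. The Ctss difference of -0.16 was -2.04 times the SD of genes of similar level, which was small for such bright genes at 0.08.

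Ctsc, the dipeptidyl peptidase that activates granule serine proteases, was at 15.16 in control, 15.00 after astragaloside IV and 14.97 after oxymatrine. Both treated arrays were lower than control, by differences of -0.17 and -0.19, or -2.11 and -1.68 times the SD of genes of similar level. Ctsh, an aminopeptidase, lay the other way at 15.92 in control and 15.99 in both treated arrays. Ctsz, a carboxypeptidase, was at 16.80, 16.94 and 16.87, and so also higher in both treated arrays, by 0.13 and 0.07. Ctso was at 10.36, 10.36 and 10.16, low after oxymatrine only, by a difference of -0.20.

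Ctsk, the collagen-degrading cathepsin of osteoclasts, was at 6.44 in each array, and its neighbour on the chromosome is Ctss. The serine protease Ctsa, also known as protective protein, was at 14.46 in each array. Ctse, an aspartic protease, was at 9.09 in control, 8.97 after astragaloside IV and 8.95 after oxymatrine. Ctsd, also an aspartic protease gene, was not among the named genes and is not covered. Ctsf was below background and uneven, at 3.98, 3.42 and 4.48, and gets no fold. Ctsg, a granule protease of neutrophils, was below background at 2.88, 2.88 and 2.93. Of 13 neutrophil markers 3 were above background, and the granule genes Elane, Mpo and Prtn3 were below it in each array. The 3 were Lcn2 at 13.21, 12.71 and 12.94, Csf3r at 10.59, 10.11 and 10.49 and Mmp8 at 7.94, 7.68 and 7.94, all lowest after astragaloside IV. The sums over all 13, most of them below background, were 76.0, 73.4 and 76.4. Ctsw, known from NK and cytotoxic T cells, was below background at 4.77 in each array, as were Ncr1, Klrb1c and Prf1. Of 12 markers of T and NK cells 4 were above background, of which Il2rb (-1.01 and -0.84), Cd5 (-0.45 in both) and Cd8a (-0.32 in both) were lower than control in both treated arrays and Gzma was equal. The sums over all 12 were 61.7, 60.0 and 61.5, most of it from genes below background.

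A further 4 cathepsins, Ctsj, Ctsm, Ctsq and Ctsr, belong to a cluster expressed in rodent placenta, and Ctsj, Ctsq and Ctsr are next to one another. They are close copies of one another, so the value of any single member is uncertain on an array. Ctsq was at 4.93 in control, 5.24 after astragaloside IV and 6.12 after oxymatrine, and only the last was above background. The oxymatrine value lay 1.19 above a control value that was itself below background, so the size of this difference is uncertain. Ctsq also entered the 31 genes only through the oxymatrine array and had to be high there. Ctsm, just above background, was at 5.77, 5.77 and 5.62. Ctsj was at 3.74 in each array and Ctsr at 4.19, 3.90 and 4.40, all below background.

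Of the remaining genes below background, 4 encode isoforms known from other tissues. Atp6v0a4, from kidney and inner ear, was at 4.42, 4.94 and 4.77 in control, astragaloside IV and oxymatrine. Atp6v1b1, from the same tissues, was at 3.19, 2.91 and 3.19, and Atp6v1c2, from epithelia, at 3.62 in each array. Atp6v1g3, from kidney, was just below background with a mean of 5.20, and at 5.06, 5.06 and 5.48. Atp6v1fnb, named for its place beside Atp6v1f, was at 3.84, 3.84 and 3.92. For subunits a, B, C, E and G the widely expressed isoform was thus above background in each array, and Atp6v1e2 and Atp6v1g2 were the tissue isoforms of V1 that were above it too.

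After astragaloside IV, 17 of the 31 genes were lower than control, 7 higher and 7 equal, beside 39.9% lower and 30.6% higher among 10671 genes above background. For the 17 pump subunits with an Atp6v symbol the count was 11 lower and 4 higher, and for 12 cathepsins 5 lower and 3 higher. The median difference of the 31 genes was -0.006 and that of all genes 0. Only Atp6v1e2 was 1.5-fold or more apart, 1 of 31 beside 2.13% of all genes, and 0 were 2-fold apart, beside 0.197%. The next differences among genes above background in each array were -0.30 for Atp6v0e2, 0.29 for Atp6v1e1 and -0.23 for Atp6v0d2. Both values of Ctsq were below background in this comparison. The split of directions depended on the scaling. With each array centred on its own median 24 were lower and 5 higher, beside 77.5% and 21.0% of all genes. After quantile normalisation 16 were lower and 13 higher, beside 55.7% and 38.6%.

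After oxymatrine, 15 of the 31 genes were lower than control, 8 higher and 8 equal, beside 45.2% lower and 28.9% higher among all. The pump subunits were lower in 8 and higher in 4 of 17 cases, and the cathepsins lower in 6 and higher in 3 of 12. The median difference was -0.003, and that of all genes 0. Ctsq and Atp6v1e2 were 1.5-fold or more higher and Atp6v0e2 lower, 3 of 31 beside 3.31% of all genes, and Ctsq was 2-fold apart, 1 of 31 beside 0.281%. The calls of Ctsq rest on a control value below background. With the stricter background of 5.88, which leaves out Ctsq and Ctsm, 2 of 29 genes were 1.5-fold apart. These were Atp6v0e2, above that level in each array, and Atp6v1e2, whose control value of 5.68 was below it. Atp6v1e2 thus passed the stricter filter only through its treated values. The share of all genes above the stricter background was not counted. Centred on the array median, 25 were lower and 5 higher, beside 78.7% and 20.1% of all genes, and after quantile normalisation 13 were lower and 17 higher, beside 51.5% and 46.0%. Both comparisons use the same control array. Side by side, Atp6v1e2 had 0.76 and 0.76 and Atp6v0e2 -0.30 and -0.61 after astragaloside IV and oxymatrine. Among genes above background in each array, these were the ones at least 1.2-fold from control in both on the same side.

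**Figure D3:**
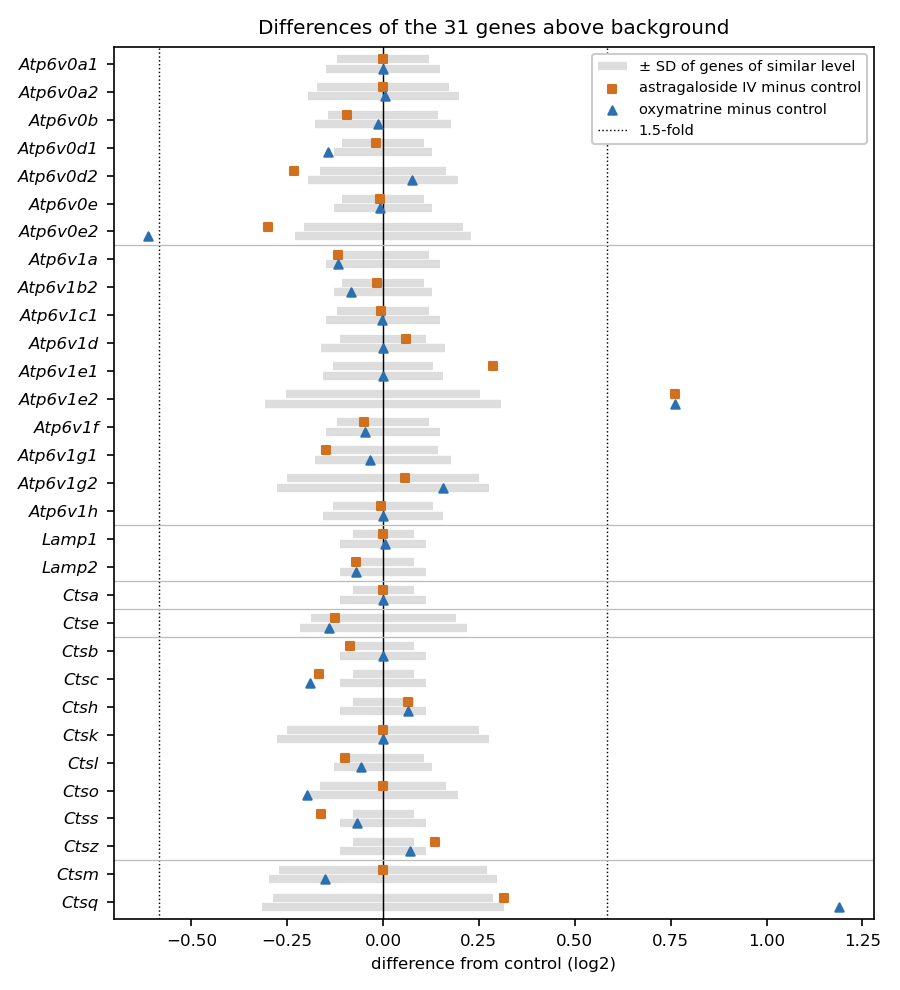
Log2 difference from control of the 31 genes above background, for astragaloside IV (squares) and oxymatrine (triangles). Grey bars span 1 SD to either side of 0, of that comparison among genes of similar level, dotted lines mark 1.5-fold, and Atp6v0e2, Atp6v1e2 and Ctsq are the genes with a symbol beyond them, with Ctsq below background in control and after astragaloside IV.

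Between the treated arrays, 10 of the 31 genes were lower after oxymatrine, 11 higher and 10 equal, beside 39.8% lower and 31.7% higher among all, and the median difference was 0. Ctsq was the only gene 1.5-fold or more apart, higher after oxymatrine, 1 of 31 beside 2.58% of all genes. Its astragaloside IV value was below background. With the stricter background 0 of 29 genes were 1.5-fold apart, and the share of all genes was not counted there. None was 2-fold apart, beside 0.159%. Atp6v0e2 was lower after oxymatrine by a difference of -0.31 and Atp6v1e1 by -0.29, whereas Atp6v0d2 was higher by 0.31. Atp6v1g1 was higher by 0.11. Centring left 18 lower and 8 higher, beside 67.5% and 30.4% of all genes, and quantile normalisation 9 and 21, beside 37.8% and 57.3%.

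**Figure D4:**
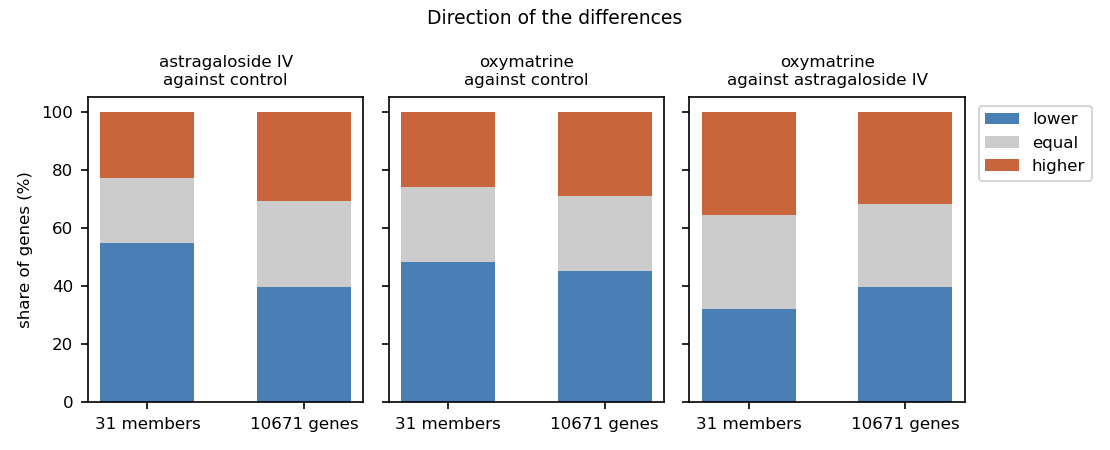
Share of genes lower, equal (difference under 0.005) or higher in each comparison, in percent, for the 31 genes above background and for all 10671 genes above background. Lower genes make up 54.8% of the 31 and 39.9% of all after astragaloside IV, and 48.4% and 45.2% after oxymatrine.

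For the 7 genes above background with CACGTG in the window, differences from control lay between -0.14 for Atp6v0d1 and 0.01 for Lamp1, both after oxymatrine. Of the genes with several copies, Lamp1 and Ctsa were within 0.01 of control in both treated arrays, and Atp6v0b differed by -0.09 and -0.01 after astragaloside IV and oxymatrine. Of those with a single copy, Atp6v1a differed by -0.12 and -0.12 and Ctsl by -0.10 and -0.06. Tfeb, which encodes the factor known to bind CLEAR elements, was at 6.70 in control, 6.69 after astragaloside IV and 7.30 after oxymatrine, a difference of 0.60 in the last. Its relative Tfe3 was at 11.02 in each array.

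Other genes of the same system were taken from lists and counted in the same way, at 1.5-fold. Of 16 accessory and assembly genes of the pump above background, 11 were lower and 3 higher after astragaloside IV and 7 and 5 after oxymatrine, with medians of -0.03 and 0. Tcirg1 was at 13.31, 13.30 and 13.33. It encodes the a3 subunit of the pump itself and is counted in this list because its symbol does not start with Atp6v. Tmem9 differed by -0.59 after astragaloside IV, 1 of 16 past 1.5-fold beside 2.13% of all genes, to a treated value of 5.26 that was not above background. The assembly factor gene Ccdc115 differed by -0.04 and -0.36, and Atp6ap1, which encodes an accessory glycoprotein of the pump, by -0.13 and -0.35. After oxymatrine 0 of 16 were past 1.5-fold.

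All 22 genes for the sorting of lysosomal enzymes were above background. After astragaloside IV 15 were lower and 5 higher, at a median of -0.09, and after oxymatrine 17 and 3, at a median of -0.10, and 0 were past 1.5-fold in either. M6pr, a receptor that carries enzymes to the lysosome by their mannose 6-phosphate tag, was at 15.74 in control, 15.43 after astragaloside IV and 15.34 after oxymatrine. Vps35, of the retromer that recycles such receptors, was at 12.80, 12.73 and 12.40. Sort1, a further sorting receptor, was at 7.74, 8.31 and 7.74, high after astragaloside IV only. The lower and higher shares of all genes, given above, apply to the counts of each list. So do the shares past 1.5-fold, 2.13% after astragaloside IV and 3.31% after oxymatrine.

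The 32 other lysosomal hydrolases were all above background, with 15 lower and 6 higher after astragaloside IV, 14 and 6 after oxymatrine, medians of 0 and 0 past 1.5-fold. Galns, a sulfatase of the lysosome, differed by -0.36 and -0.53, Ids, another, by -0.37 and -0.27, and Arsa, also a sulfatase, by 0.18 and 0.33. Of 34 genes of lysosomal membrane and transport proteins, 16 were lower and 7 higher, then 14 and 7, with medians of 0. Slc17a5, the sialic acid exporter, differed by -0.30 and -0.36, and the channel gene Mcoln2 by 0.10 and 0.47. The channel gene Tpcn1 was at 9.48, 9.29 and 8.74. With -0.75 it was the only gene of the list past 1.5-fold after oxymatrine, 1 of 34 beside 3.31% of all genes. After astragaloside IV 0 of 34 were past it, beside 2.13%. Of 26 genes of TFEB and nutrient sensing at the lysosome, 9 were lower and 8 higher after astragaloside IV and 14 and 6 after oxymatrine. Of these genes 0 were past 1.5-fold after astragaloside IV, beside 2.13% of all genes, and 3 of 26 after oxymatrine, beside 3.31%. The latter were Tfeb with 0.60, Sesn1, an inhibitor of mTORC1 signalling, with -0.70, and Lamtor4, a subunit of the Ragulator complex, with -0.68.

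Cathepsin inhibitors lay close to control, with 5 of 14 above background, 2 of them lower and 1 higher after astragaloside IV, 0 and 3 after oxymatrine, and 0 past 1.5-fold in either comparison. Cst7, which encodes cystatin F, was at 8.88 in control, 8.99 after astragaloside IV and 8.96 after oxymatrine, and Cstb, for cystatin B, at 15.39, 15.30 and 15.44. Of 7 endosomal sensors and partners, all above background, 3 were lower and 2 higher after astragaloside IV and 1 and 4 after oxymatrine. Tlr9 was at 12.62, 12.53 and 12.62, and Tlr13, a sensor of bacterial RNA, at 11.56, 11.38 and 11.63. Ifi30, a thiol reductase of endosomes, was at 15.61 in control and 15.78 in both treated arrays. Tlr3 differed by 0.53 after astragaloside IV and 0.10 after oxymatrine, and 0 of the 7 were past 1.5-fold in either.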

How the data were processed

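RNA was turned into biotin-labelled cRNA and hybridised to 1 array for each of 3 samples. The deposited values are log2 expression levels per probe set, made by the authors with RMA, per the submitters' processing notes. The software is not given in the sources used here, nor its version. Values that never fall below 0 were taken as log2. In control they reach 17.17 for Ctsb and 18.15 for Cst3, and the scale was not checked in another way. Probe sets were named through the platform annotation of 2019, and all 43 members matched RefSeq by Entrez identifier. Where a gene had several probe sets, the brightest was used.

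Differences between 2 arrays were computed for all genes, and counted over those with a mean of at least 5.28. With 1 array in each group no test was possible, and the number of arrays limits the precision. The members and lists were chosen with earlier results of these data known. All members are given with their values. From each other list the 3 genes with the largest difference from control were named (for cathepsin inhibitors, 2). Tcirg1, Tfe3, Tlr9 and the marker genes were added for their role after their values had been seen. The alternatives were other level filters, scalings and thresholds, and the mean over probe sets. The calculations were tested on simulated data. Tools were Python 3.11.15, numpy 2.4.6, pandas 2.3.3 and matplotlib 3.10.9.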

Additional observations from a re-analysis of the deposited data

How the results depend on the processing

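The counts by direction rested on small differences. With differences of at least 0.1 only, 8 genes were lower and 4 higher with astragaloside IV, 7 and 3 with oxymatrine, and 5 and 4 with oxymatrine against astragaloside IV. Of all 10671 genes above background, 2492 were lower and 1772 higher by this measure with astragaloside IV. The counts were 3117 and 1788 with oxymatrine, and 2417 and 1844 with oxymatrine against astragaloside IV. After quantile normalisation 13, 17 and 21 were higher in the same order. Centring on the array median made 25 genes lower and 5 higher with oxymatrine, and 18 lower between the treated arrays. With all 43 genes and no level filter, 14 were higher with oxymatrine than control, beside 34.2% of 19505 genes. Higher with oxymatrine than astragaloside IV were 18, beside 34.4%. Without the filter 3 were 1.5-fold apart between the treated arrays, for which the share of all genes was not counted. They were Ctsq, Ctsf and Lamp3, of which Ctsf and Lamp3 were below background in each array. With the 99th percentile of the receptor genes as background, at 5.88, Ctsq and Ctsm left the set. In that comparison 0 genes were then 1.5-fold apart, and the share of all genes was again not counted. At 2-fold, 0, 1 and 0 genes were apart. Centring moved the median differences from control to -0.06 and -0.07. Centring moved those of all genes above background alike, to -0.06 and -0.06. The differences of at least 1.2-fold of Atp6v0d2, Atp6v0e2, Atp6v1e1, Atp6v1e2 and Ctsq kept their direction under centring and quantile normalisation, and genes of the other lists were not recomputed one by one. No paired analysis was possible because each group had 1 array, and for the same reason no replicate could be left out.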
